A study of Mus musculus with 21 samples.

Results

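Krüppel-like factors are DNA-binding proteins with zinc fingers that bind CACCC boxes and related GC-rich sequence in promoters and enhancers, and they share this preference with the Sp factors. In resting T cells several of them support the quiescent state and the expression of trafficking receptors, with Klf2 as the best known example. Family members differ in what they recruit, so that some mainly activate transcription, others mainly repress it, and some do either at different genes.

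The 6 genes described here are Klf3, Klf4, Klf6, Klf7, Klf10 and Klf13, matched by gene name among the 15249 genes of the regularised log (rlog) table, and all 6 were found. They were chosen from the readout of these same libraries, and which values were used is not given. All their levels and fold changes in the 7 groups were therefore treated as used by the choice. They are given as a description and support nothing.

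The libraries came from splenic CD4+ T cells of Tg4 Nr4a3-Tocky Il10-GFP mice, and every group, controls included, carried these transgenes. The Tg4 transgene encodes a receptor that recognises a peptide of myelin basic protein (MBP), and Nr4a3-Tocky cells make a Timer protein that is blue when new and matures to red, driven by the Nr4a3 locus, which responds to receptor signaling. Mice received 0.8 µg (low dose) or 80 µg (high dose) of [4Y] MBP peptide subcutaneously without adjuvant. Spleens were sampled 4 h, 12 h or 24 h later, next to controls, which the paper calls non-activated. The sort gate of the controls is not given in the sources used here. The 7 groups had 3 libraries each, 21 in all, made by 3′ mRNA sequencing, which counts tags near transcript ends. Ages of the mice were not given in the sources used here. The sort gate changed with time: Blue+Red- cells were taken at 4 h, Blue+Red+ cells at 12 h and Blue-Red+ cells at 24 h, so time and gate cannot be told apart. The study's methods describe replicate mice, stained individually before the sort, while the labels do not tie a library to a mouse.

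Library totals ranged from 2352800 to 6244279 counts, and the noncoding transcript Gm42418 took 17% to 27.8% of them. All 8 CD4 T cell markers (Cd4, Cd3d, Cd3e, Cd3g, Trac, Cd28, Lck and Cd5) were detected in every group, at a summed 2870 to 3010 CPM (counts scaled to equal library totals) in controls and between 1170 and 2730 CPM in the immunised libraries. The 5 B cell markers summed to 34.9 to 71.7 CPM in controls and to 1.45 to 39.6 CPM after peptide. The 8 myeloid markers lay between 3 and 35 CPM in all libraries, the 2 CD8 markers between 13.1 and 51.3 CPM, and the 3 NK cell markers at or below 5.01 CPM. Some of these sums differed between doses. The CD8 sum was 43.6 to 51.3 CPM after the low and 13.1 to 22.7 CPM after the high dose at 12 h, and 34.3 to 40.9 against 20.1 to 28.8 CPM at 24 h. Cd8a had 45.9 to 58.7 normalised counts after the low and 2.74 to 5.83 after the high dose at 12 h, with 2.06 to 9.99 in controls, and 13.4 to 14.9 against 0 to 3.08 at 24 h. The NK sum at 24 h was 3.84 to 5.01 CPM after the low and 0 to 1.63 CPM after the high dose. The B cell sum at 24 h was 13.6 to 25.1 CPM after the low and 5.28 to 13.3 CPM after the high dose. The dendritic cell sum at 24 h was 0.972 to 2.95 against 0 to 0.16 CPM. The CD4 sum at 12 h went the other way, at 1170 to 1190 CPM after the low and 1470 to 1590 CPM after the high dose. The 5 dendritic cell markers reached at most 2.95 CPM, and were at 0 in the high-dose 4 h and high-dose 12 h libraries. The 5 erythroid markers varied from 5.31 to 211 CPM within and between groups. The part of other cells in the results below was not tested.

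In GRCm38, Klf6 (ENSMUSG00000000078) lies on the plus strand of chromosome 13 from 5861482 to 5870394. Klf3 (ENSMUSG00000029178) lies on the plus strand of chromosome 5 from 64803388 to 64832901, and Klf13 (ENSMUSG00000052040) on the minus strand of chromosome 7 from 63886351 to 63938915. Klf7 (ENSMUSG00000025959) occupies 64029447 to 64122282 on the minus strand of chromosome 1, and Klf10 (ENSMUSG00000037465) 38291463 to 38300706 on the minus strand of chromosome 15. Klf4 (ENSMUSG00000003032) occupies 55527143 to 55532466 on the minus strand of chromosome 4. Exons of Klf3 overlap Gm20033 on the opposite strand, and exons of Klf7 overlap Gm13748 and Gm26649. The strand setting of the counting was not given in the sources used here, so reads of these pairs may not be told apart.

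Promoter sequence is shown for Klf3, Klf6 and Klf13, because Klf3 and Klf6 responded to dose in opposite directions at 4 h, while Klf13 overlapped between the doses there. The sequences are from RefSeq on GRCm38.p6, read in the direction of transcription, and hold the bases before the annotated gene within 250 bases of the RefSeq start. Capitals mark CACCC boxes (CACCC or GGGTG) and GC boxes (GGGCGG or CCGCCC), which can share bases with each other.
Klf6, chr13:5861239-5861481, plus strand: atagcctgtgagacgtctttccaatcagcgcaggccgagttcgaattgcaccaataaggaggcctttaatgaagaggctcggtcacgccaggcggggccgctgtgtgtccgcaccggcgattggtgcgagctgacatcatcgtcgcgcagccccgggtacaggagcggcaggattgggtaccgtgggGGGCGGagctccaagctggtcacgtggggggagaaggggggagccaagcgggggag
Klf3, chr5:64803271-64803387, plus strand: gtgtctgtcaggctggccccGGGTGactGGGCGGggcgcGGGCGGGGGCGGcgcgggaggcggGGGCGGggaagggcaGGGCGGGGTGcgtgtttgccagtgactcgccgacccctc
Klf13, chr7:63938916-63939165, minus strand: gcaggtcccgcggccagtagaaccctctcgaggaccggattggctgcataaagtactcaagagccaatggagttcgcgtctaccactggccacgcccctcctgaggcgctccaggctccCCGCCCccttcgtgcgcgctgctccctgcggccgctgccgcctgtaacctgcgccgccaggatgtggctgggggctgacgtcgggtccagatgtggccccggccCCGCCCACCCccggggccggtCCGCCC

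The short Klf3 stretch held 2 CACCC boxes and 5 GC boxes, the Klf13 stretch 1 CACCC box and 3 GC boxes, and the Klf6 stretch no CACCC box and 1 GC box. In the whole 250 bases before the RefSeq start, Klf3 had 5 CACCC and 6 GC boxes, Klf7 had 3 and 1, Klf4 had 0 and 4, and Klf10 was not in the table. Of 32851 mouse promoters of this length, 52% held a CACCC box and 32.7% a GC box. The letters TGACGTCA (cyclic AMP response element) and TGANTCA (AP-1) were in none of the 5 windows, against 1.55% and 6.75% of all promoters, and GGAAA (the NFAT core) was in the Klf6 window only, against 55.6% of all promoters. GC content was 78.4% for Klf3, 74% for Klf4, 71.6% for Klf13, 64.8% for Klf6 and 59.2% for Klf7, with a median of 52.4% over all promoters. Such matches are letters in a window and show no binding.

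The first question was how the factors differed between control cells and cells that had met peptide. Values are normalised counts, that is counts divided by DESeq2 size factors, and they can be compared between libraries but not between genes. Genes counted as called had, in the DESeq2 fit over all genes, an adjusted p (Benjamini-Hochberg) under 0.05 together with a shrunken log2 fold change beyond 1 in size. Klf3, Klf7 and Klf13 were several-fold lower at 4 h and 12 h at both doses. Klf6 was lower in every immunised group except the high dose at 4 h, where it lay near control. Klf10 went the other way, above control at 4 h after the low dose and at 24 h after both doses. In bulk RNA, a change in the share of cells that express a gene and a change in RNA per cell cannot be told apart.

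**Figure D1:**
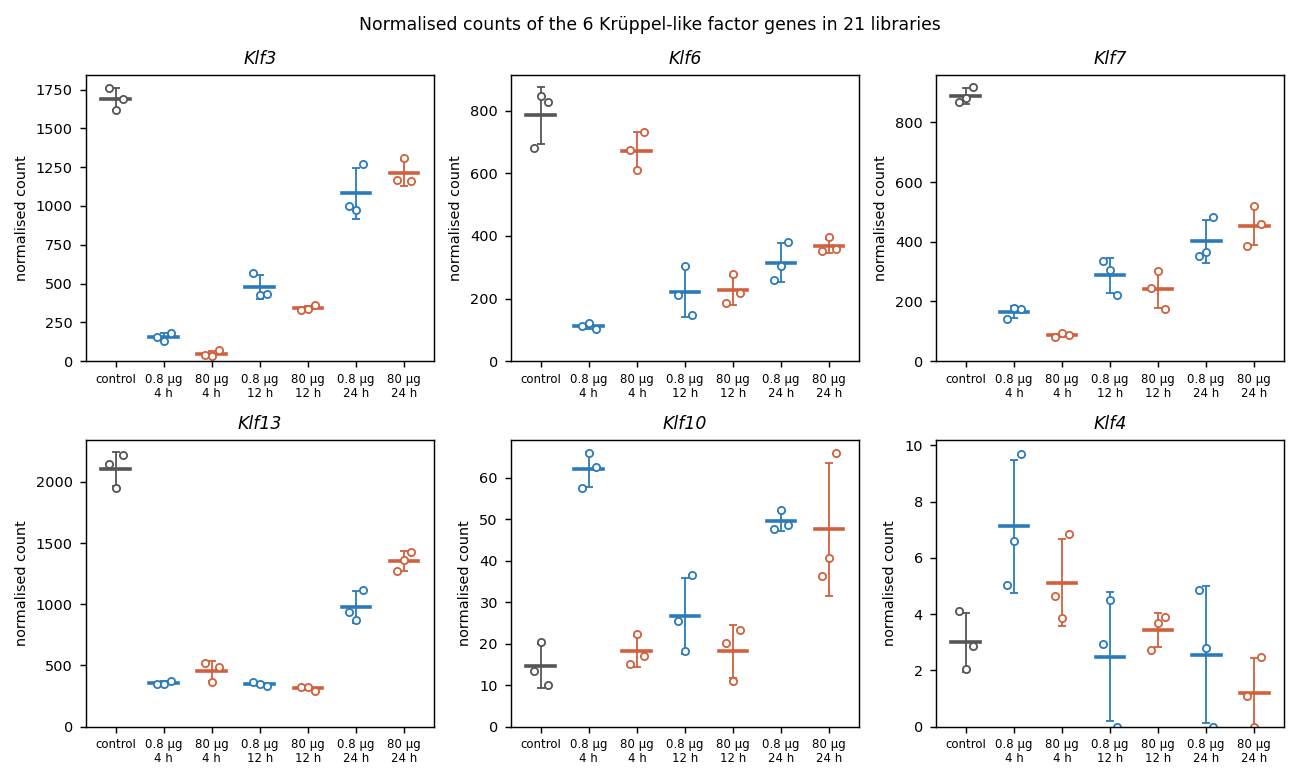
Normalised counts (vertical axis, linear from 0, a scale for each gene) of the 6 genes in the control, low-dose (blue) and high-dose (orange) libraries at 4 h, 12 h and 24 h. Circles are libraries, thick bars means and thin bars SD of 3 libraries; Klf6 at 4 h after 80 µg (671 ± 60.7) stands near control (785 ± 90.6) while Klf3 there is at its lowest (47.1 ± 20.2).

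Klf6, a widely expressed activator that growth and stress signals induce quickly in many cells, had 681, 848 and 827 normalised counts in the control libraries. After the low dose it had 113, 121 and 104 at 4 h, 210, 304 and 147 at 12 h, and 259, 304 and 381 at 24 h. After the high dose it had 674, 609 and 730 at 4 h, 186, 277 and 218 at 12 h, and 353, 395 and 358 at 24 h. Of the immunised groups, only the high dose at 4 h overlapped the controls, through its library at 730, while those at 674 and 609 lay below all controls. The low-dose 4 h libraries were the lowest of all. In the order of group means, control and high dose at 4 h overlapped, then came a gap to the 24 h groups and the 12 h groups, whose neighbouring ranges overlapped (means of 369, 315, 227 and 220), and another gap to the low dose at 4 h. The shrunken log2 fold change against control was -2.77 (SE 0.20) for the low dose at 4 h, a 6.97-fold lower mean, and -0.22 (SE 0.18, 95% interval of the unshrunken value -0.59 to 0.14) for the high dose at 4 h. It was -1.81 (SE 0.19) and -1.77 (SE 0.19) at 12 h and -1.31 (SE 0.19) and -1.08 (SE 0.18) at 24 h, for the low and the high dose in each pair.

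Klf3, which represses transcription through the corepressor CtBP, had 1760, 1620 and 1690 normalised counts in controls. After the low dose it had 156, 132 and 180 at 4 h, 566, 427 and 436 at 12 h, and 1000, 973 and 1270 at 24 h. After the high dose it had 37, 33.9 and 70.3 at 4 h, 333, 337 and 361 at 12 h, and 1170, 1310 and 1160 at 24 h. The groups thus stood in the order of control, 24 h, 12 h and 4 h, and of neighbours in that order only the 2 groups at 24 h overlapped. The mean was 10.8-fold lower than control at 4 h after the low dose (log2 fold change -3.41, SE 0.15) and lower again after the high dose (-5.09, SE 0.18). At 24 h the difference was down to -0.64 (SE 0.14) for the low dose and -0.47 (SE 0.14) for the high dose, past the fold threshold for neither, although no library overlapped the controls.

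Klf7, an activator related in sequence to Klf6 and known in T cell progenitors and leukemia, had 867, 881 and 918 normalised counts in controls. After the low dose it had 141, 179 and 176 at 4 h, 334, 306 and 223 at 12 h, and 353, 367 and 484 at 24 h. After the high dose it had 82.2, 93 and 86.6 at 4 h, 245, 301 and 176 at 12 h, and 386, 519 and 458 at 24 h. No immunised library reached the control range, and the high-dose 4 h libraries were below all others. The log2 fold change against control was -2.41 (SE 0.18) and -3.32 (SE 0.19) at 4 h for the low and the high dose, the latter a 10.2-fold lower mean. It was -1.61 (SE 0.17) and -1.87 (SE 0.17) at 12 h and -1.14 (SE 0.17) and -0.96 (SE 0.17) at 24 h. The last of these was not called, but it was under libraries scaled by their total counts (-1.19) and without the replicate 2 library of the high dose at 24 h (-1.07).

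Klf13, known in T cells as a factor that activates the chemokine gene Ccl5 late after stimulation, had 2150, 1950 and 2220 normalised counts in controls. After the low dose it had 348, 349 and 371 at 4 h, 368, 345 and 329 at 12 h, and 938, 871 and 1120 at 24 h. After the high dose it had 517, 362 and 484 at 4 h, 322, 327 and 292 at 12 h, and 1270, 1360 and 1430 at 24 h. All immunised libraries lay below the controls, and the lowest group mean was the high dose at 12 h (313 ± 19.1) rather than a 4 h group. The log2 fold change against control was -2.56 (SE 0.12) and -2.21 (SE 0.11) at 4 h, -2.59 (SE 0.12) and -2.74 (SE 0.12) at 12 h, and -1.11 (SE 0.11) and -0.63 (SE 0.11) at 24 h, low dose first.

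Klf10, a repressor that transforming growth factor beta induces early, was measured by few tags. It had 13.4, 20.3 and 9.99 normalised counts in controls. After the low dose it had 57.5, 65.9 and 62.6 at 4 h, 25.5, 18.1 and 36.4 at 12 h, and 47.7, 52.2 and 48.5 at 24 h. After the high dose it had 15, 22.3 and 17.1 at 4 h, 20.1, 11 and 23.3 at 12 h, and 36.2, 40.5 and 65.9 at 24 h. The low-dose 4 h group and both 24 h groups stood above all controls, and the other 3 immunised groups overlapped them. The log2 fold change against control was 1.98 (SE 0.38) at 4 h after the low dose, a 4.26-fold higher mean, and 0.28 (SE 0.40, interval -0.54 to 1.13) after the high dose. It was 0.78 (SE 0.39) and 0.25 (SE 0.40) at 12 h and 1.67 (SE 0.38) and 1.63 (SE 0.37) at 24 h. The low-dose value at 12 h passed the thresholds without control replicate 2 (1.04) or low-dose replicate 2 (1.00), and not with all libraries.

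Klf4, a factor of pluripotency and of myeloid and epithelial cells that also restrains T cell proliferation, was near the limit of detection. It had 0 to 9 raw counts in a library and group means between 1.19 normalised counts (high dose at 24 h) and 7.12 (low dose at 4 h), and it was called in no comparison. All neighbouring group ranges overlapped. At this depth a count of 0 allows up to 3 counts, or 0.48 to 1.28 CPM in the deepest and the shallowest library (counting error only). All 4 h low-dose libraries (5.05 to 9.71 normalised counts) lay above all controls (2.03 to 4.12), a log2 fold change of 1.02 (SE 0.80) that was not called, with an interval of the unshrunken value from -0.73 to 3.21.

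Set against the background, 5 of the 6 members were called at 4 h after the low dose (Klf10 higher and Klf3, Klf6, Klf7 and Klf13 lower), where 40.7% of all genes tested were called, 17.3% higher and 23.4% lower. At 4 h after the high dose it was 3 members, all lower, against 43.5% of all genes in either direction and 25.1% lower. At 12 h it was 4 members, all lower, after the low dose (37.7% of all genes, 20.5% lower) and 4, all lower, after the high dose (37.9%, 20.1% lower). At 24 h after the low dose Klf10 was called higher and 3 members lower (17.3% of all genes, 11.5% higher and 5.84% lower), and after the high dose Klf10 higher and Klf6 lower (20.2%, 12.3% higher and 7.91% lower). The member median of the log2 fold change was -2.48 and -1.22 at 4 h, -1.71 and -1.82 at 12 h, and -0.87 and -0.78 at 24 h, low dose first. Over all genes tested the median was -0.13 and -0.15 at 4 h, -0.11 at 12 h for both doses, and 0 at 24 h for both. Ranges without overlap with control were found for all 6 members at 4 h after the low dose (61.9% of all genes), 3 after the high dose (63.9%), 4 at each dose at 12 h (59.3% and 60.1%) and 5 at each dose at 24 h (48.3% and 50.8%). All 6 of these comparisons share the control libraries.

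The second question was how the dose mattered at a given time. This contrast compared cells sorted through the same gate. At 4 h, Klf6 was 5.96-fold higher after the high than after the low dose, while Klf3 was 3.32-fold and Klf10 3.41-fold lower. At 12 h and 24 h no member passed both call thresholds.

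**Figure D2:**
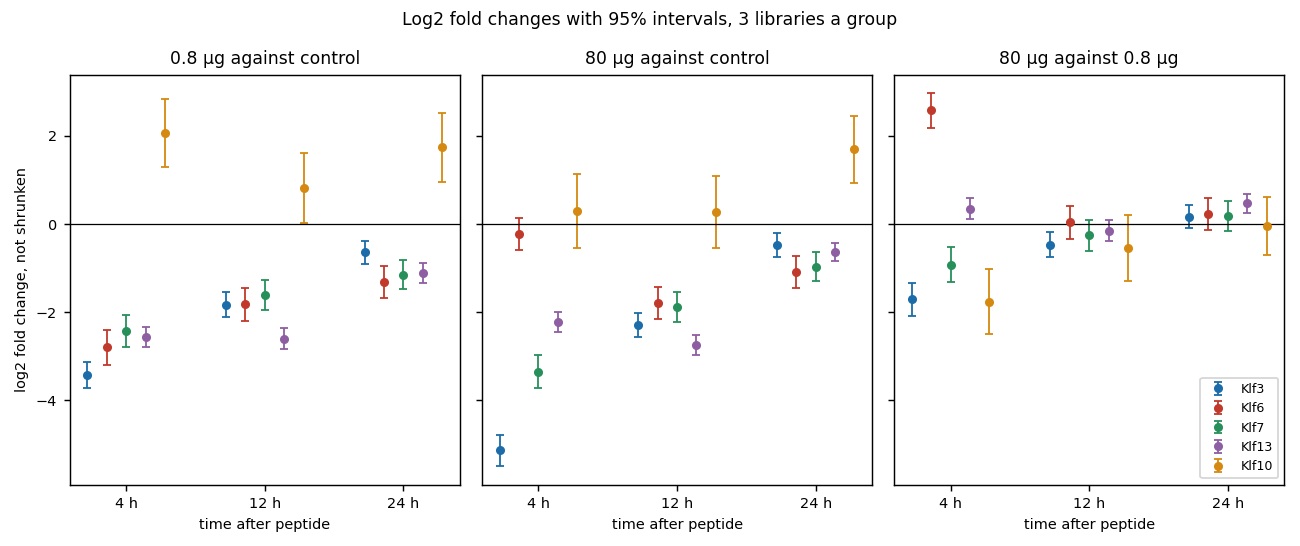
Log2 fold changes before shrinkage (points) with 95% intervals (bars) from the DESeq2 fit, for low dose against control, high dose against control and high against low dose at 4 h, 12 h and 24 h, 3 libraries a group. Klf4 is left out for its low counts; in the right panel Klf6 at 4 h (interval 2.19 to 2.97) stands above all other points, and Klf3, Klf6, Klf7 and Klf10 lie closer to 0 at 12 h and 24 h than at 4 h, while Klf13 does not at 24 h.

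At 4 h, 3 of the 5 members with an adjusted p were called between doses, against 5.85% of all genes tested (3.12% higher and 2.74% lower), and Klf4 had no adjusted p because of its low counts. The Klf6 difference was 2.55 on the log2 scale (SE 0.20), with 609 to 730 normalised counts after the high and 104 to 121 after the low dose. The Klf3 difference was -1.68 (SE 0.19, interval of the unshrunken value -2.08 to -1.33), and the Klf10 difference was -1.71 (SE 0.36, interval -2.50 to -1.03). None of these 3 had overlapping libraries. Klf7 was also lower in all high-dose libraries (-0.91, SE 0.20), which missed the fold threshold with all libraries and passed it without low-dose replicate 1 (-1.01). Klf13 differed by 0.35 (SE 0.12, DESeq2 adjusted p = 0.0405), short of the fold threshold and with overlapping libraries. The 2 doses at 4 h thus had opposite orders for Klf6 and for Klf3 and Klf7, and 4 members did not overlap, against 28.7% of all genes without overlap.

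The CD4 T cell marker sum also differed between doses at 4 h, at 1720 to 1870 CPM after the low and 1360 to 1410 CPM after the high dose. Its genes did not move alike, with normalised counts of Cd4 at 845 and 220 and of Lck at 938 and 440 but of Trac at 2410 and 3030 (means, low dose first). Its part in the dose differences was not tested. The B cell marker sum at 4 h was 12.6 to 29.5 CPM after the low and 10.3 to 13.1 CPM after the high dose, and the myeloid sum 10 to 33.9 and 3 to 9.49 CPM.

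At 12 h, 0 of 5 members were called by DESeq2, where 2.79% of all genes were, and edgeR called 0 as well. Klf3 alone had an unadjusted p under 0.05, with 333 to 361 normalised counts after the high and 427 to 566 after the low dose. Its adjusted p (DESeq2) was 0.022, so Klf3 missed only the fold threshold (log2 difference -0.47, SE 0.14). Klf13 was lower in every high-dose library, at 292 to 327 against 329 to 368, with a log2 difference of -0.15 (SE 0.12, interval -0.39 to 0.10). The Klf6 difference was 0.04 (SE 0.19, interval -0.34 to 0.42), and it turned to -0.02 with libraries scaled by their total counts and to -0.18 without low-dose replicate 3. Its interval did not reach that at 4 h (2.19 to 2.97). The members without overlap were 2, against 19% of all genes. The CD4 T cell marker sum at 12 h was 1170 to 1190 CPM after the low and 1470 to 1590 CPM after the high dose. Its part in these differences was not tested.

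At 24 h, 0 of 5 members were called by DESeq2 (1.56% of all genes) and 0 by edgeR, and only Klf13 had an unadjusted p under 0.05. Klf13 had 1270 to 1430 normalised counts after the high and 871 to 1120 after the low dose, a difference of 0.47 (SE 0.11). Its adjusted p (DESeq2) was 0.00129, so Klf13 missed only the fold threshold. It was the 1 member without overlap, against 22.4% of all genes. The differences were 0.17 (SE 0.14, interval -0.10 to 0.44) for Klf3, 0.23 (SE 0.19, interval -0.14 to 0.60) for Klf6, 0.18 (SE 0.17, interval -0.16 to 0.52) for Klf7 and -0.04 (SE 0.33, interval -0.70 to 0.62) for Klf10.

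The counts of Klf6 per count of Klf3 restate these values in each library without scaling by library size. Both genes were picked for moving apart at 4 h, and the ratio does not show which of them moved. The absolute ratio compares tags of 2 genes and was read only for its change between libraries. It was 0.388, 0.524 and 0.489 in controls, 0.723, 0.92 and 0.575 at 4 h after the low dose and 18.2, 18 and 10.4 at 4 h after the high dose. It was 0.371, 0.711 and 0.337 at 12 h after the low and 0.56, 0.822 and 0.604 after the high dose. At 24 h it was 0.259, 0.313 and 0.3 after the low and 0.301, 0.301 and 0.308 after the high dose. The high-dose 4 h libraries stood apart from all 18 others, and the 24 h libraries all lay below the controls.

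**Figure D3:**
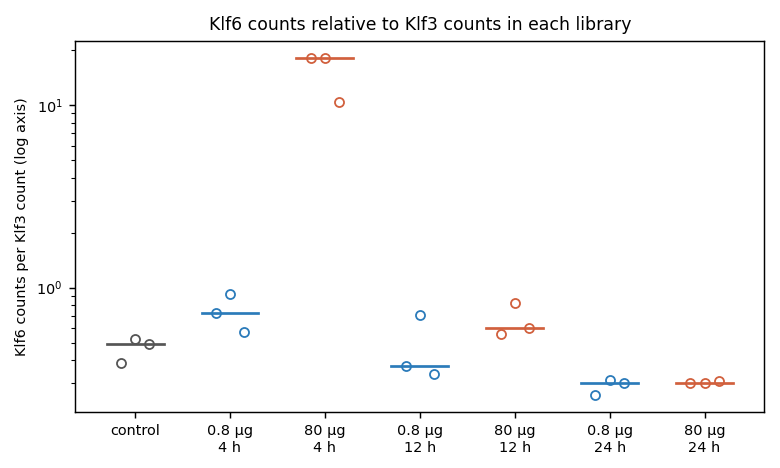
Raw Klf6 counts per Klf3 count in each of 21 libraries (circles, vertical log axis) with the median of 3 libraries (bars), by group. The 3 high-dose 4 h libraries lie between 10.4 and 18.2, and the highest of the other 18 is 0.92.

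Across the 21 libraries, Klf3 and Klf7 rlog values went together (Pearson r = 0.95, and 0.96 over the 18 immunised libraries). Klf13 was next (r = 0.78 with Klf7 and 0.73 with Klf3), while Klf6 had r = 0.64 with Klf13, 0.29 with Klf7 and 0.16 with Klf3. Klf6 and Klf10 ran opposite (r = -0.61). Over the 18 immunised libraries the r of Klf6 was 0.41 with Klf13, -0.14 with Klf7, -0.16 with Klf3 and -0.48 with Klf10. These points share groups, libraries and gates, and the values describe the 21 libraries only.

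Of the 8752 genes averaging 20 or more normalised counts, those most like Klf3 over the 21 libraries were Sptbn1 (r = 0.99), Plcg1 (r = 0.989) and Arhgap9 (r = 0.988). For Klf7 they were Pced1b (r = 0.964), Gsk3b (r = 0.963) and Ttyh3 (r = 0.962), and for Klf13 S1pr1 (r = 0.979), Tsc22d3 (r = 0.978) and 4930523C07Rik (r = 0.973). Patterns of this kind were common, with r over 0.9 for 4.81% of the genes against Klf3, 3.44% against Klf13 and 2.58% against Klf7. Klf6 had none over 0.9. Its nearest genes were Retreg1 (r = 0.895), Hs3st3b1 (r = 0.883) and Peli1 (r = 0.873), and those of Klf10 were Myb (r = 0.9), Cyba (r = 0.797) and Gtf3a (r = 0.79). For the sparse Klf4 they were Trit1 (r = 0.794), Tmem170b (r = 0.792) and Tada2b (r = 0.782).

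The rest of the family was read from a list of 20 other Klf and Sp genes, of which 10 passed the filter of 10 counts over all libraries. The other 10 had 0 to 2 counts over all 21 libraries. Klf16 and Klf9 rose at 4 h, against the direction of Klf2 and Sp3. Klf2, which maintains S1pr1 in resting T cells, fell at 4 h and 12 h at both doses and at 24 h after the low dose, and at 24 h after the high dose it lay just short of the fold threshold.

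**Figure D4:**
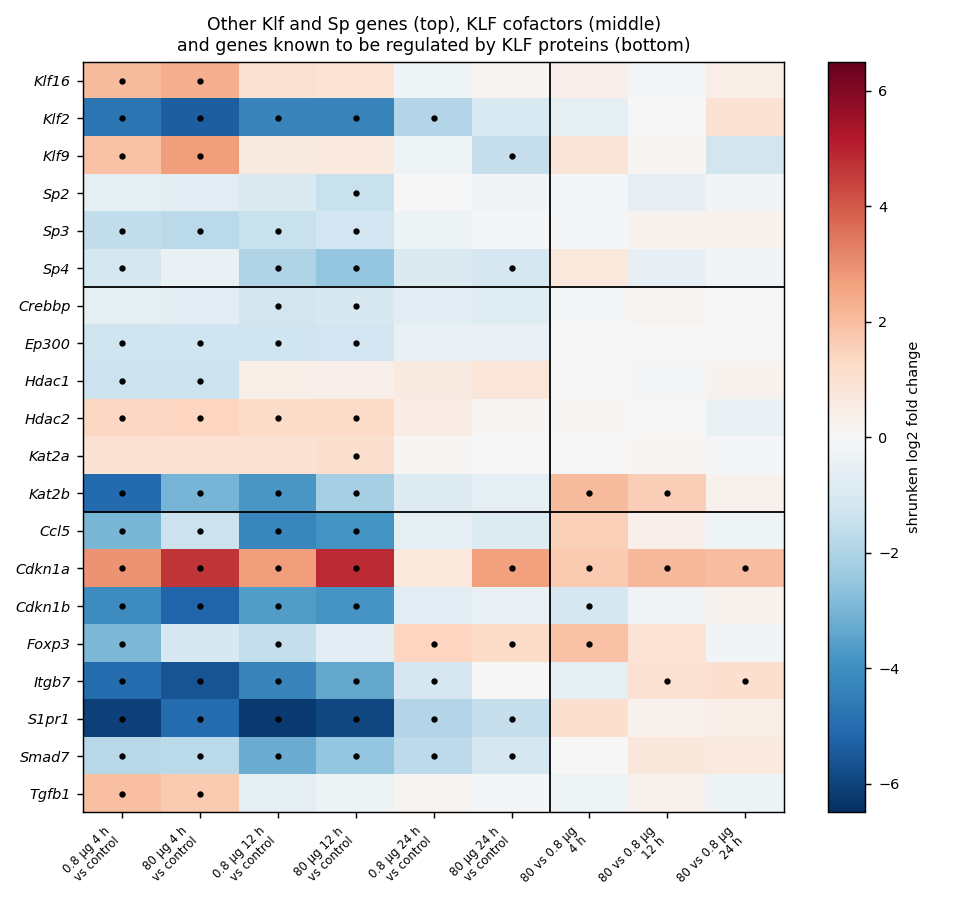
Shrunken log2 fold changes (colour, blue lower and red higher) of 20 listed genes in the 9 comparisons, with dots where a gene was called. Rows are other Klf and Sp genes, KLF cofactors and genes known to be regulated by KLF proteins; Klf16, Klf9 and Tgfb1 are red at 4 h, and Cdkn1a is red with a dot in 8 of 9 comparisons.

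Klf9, a repressor that glucocorticoids induce, had 11.2 to 15.5 normalised counts in controls, 48.5 to 55 at 4 h after the low and 90.9 to 97.8 after the high dose. Its log2 fold change was 1.88 (SE 0.42, DESeq2 adjusted p = 3.55e-05) and 2.73 (SE 0.42, adjusted p = 4.91e-10). Klf16 had 38.1 to 59.8 in controls, 178 to 217 after the low and 235 to 257 after the high dose at 4 h, with changes of 2.04 (SE 0.23, adjusted p = 4.73e-18) and 2.35 (SE 0.23, adjusted p = 2.9e-24). All 4 h libraries of both genes lay above all controls. At 24 h after the high dose Klf9 was lower than control (-1.50, SE 0.51, adjusted p = 0.0106), a call that was lost without high-dose replicate 1 (-1.07, adjusted p = 0.078) and in a fit of only the groups compared (-1.32, adjusted p = 0.0924).

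Klf2 had 1860 to 2130 normalised counts in controls and 32.6 to 156 in the libraries at 4 h and 12 h. It fell at 4 h after the low dose (log2 fold change -4.77, SE 0.39, adjusted p = 9.7e-34) and was still lower at 24 h (-1.91, SE 0.37, adjusted p = 3.06e-06). Its change from control at 24 h after the high dose was -0.99 (SE 0.37, adjusted p = 0.024), without overlap. It was called with edgeR, with unshrunken fold changes, with libraries scaled by their total counts, in a fit of only the groups compared and without replicate 2 or 3 of the low dose at 12 h. At 24 h the high-dose libraries had 923 to 999 and the low-dose libraries 397 to 694, without overlap, and the difference of 0.92 (SE 0.37) was not called (adjusted p = 0.142). Sp3, a widely expressed factor that activates or represses, fell at 4 h (-1.62 and -1.77, low dose first) and at 12 h (-1.46 and -1.23, SE 0.12 or 0.13, largest adjusted p = 3.73e-23). An antisense gene, Sp3os, overlaps its exons. Sp4 fell at 4 h after the low dose (-1.14, SE 0.23, adjusted p = 4.04e-06) and at 12 h after both doses (-1.98 and -2.50, adjusted p = 1.36e-15 and 3.97e-23).

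Of the 10 family genes tested against control, 2 were called higher and 3 lower at 4 h at each dose, against 40.7% and 43.5% of all genes called in either direction. At 12 h 4 were lower after the low and 5 after the high dose and none was higher (37.7% and 37.9% of all genes). Klf16 was just short of the fold threshold at 12 h after the low dose (1.00, SE 0.23, adjusted p = 7.21e-05), and it was called higher there with edgeR and with unshrunken fold changes. At 24 h 1 was lower after the low and 3 after the high dose (17.3% and 20.2%). Between doses, DESeq2 called 0 of 7 tested at 4 h, 0 of 9 at 12 h and 0 of 7 at 24 h, against 5.85%, 2.79% and 1.56% of all genes. At an unadjusted p under 0.05 these were 3, 1 and 4 genes, and edgeR called 1, 0 and 1. The gene edgeR called was Sp6 both times, named here after its values were seen. It had 0 counts in every high-dose 4 h library.

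KLF proteins act through corepressors and coactivators, and 13 of 14 listed cofactors passed the filter. At 4 h 1 was higher and 3 lower than control at each dose, against 40.7% (low dose) and 43.5% (high dose) of all genes called. At 12 h 1 was higher and 3 lower after the low dose and 2 higher and 3 lower after the high dose (37.7% and 37.9% of all genes). Of the high-dose calls at 12 h, those of the acetyltransferase genes Crebbp (-1.02, SE 0.11, adjusted p = 7.3e-19) and Kat2a (1.04, SE 0.20, adjusted p = 5.57e-07) lay at the fold threshold. Crebbp missed it with edgeR (-0.99), in a fit of only the groups compared (-0.93) and without control replicate 2 (-0.99) or high-dose replicate 1 (-0.97). Kat2a missed it without control replicate 3 (0.90) or high-dose replicate 1 (1.00, just short of it) or 3 (0.94). At 24 h, where 17.3% and 20.2% of all genes were called, DESeq2 and edgeR called 0 at either dose, with 7 genes (low dose) and 6 genes (high dose) at an unadjusted p under 0.05. Kat2b, a histone acetyltransferase also called PCAF, had 311 to 329 normalised counts in controls, 5.4 to 11.9 at 4 h after the low and 29.1 to 50.9 after the high dose. Its log2 fold change against control was -5.06 (SE 0.32, adjusted p = 1e-51) after the low and -3.02 (SE 0.20, adjusted p = 1.07e-47) after the high dose. It was higher after the high than the low dose by 2.04 at 4 h (SE 0.34, adjusted p = 7.8e-08) and by 1.58 at 12 h (SE 0.24, adjusted p = 7.85e-09), without overlap. Of 13 cofactors tested between doses, it was the 1 called at 4 h and at 12 h, where 5.85% and 2.79% of all genes were called. The CD8 marker sum at 12 h also differed between doses (43.6 to 51.3 and 13.1 to 22.7 CPM, low dose first). So did the CD4 marker sum (1170 to 1190 and 1470 to 1590 CPM), and the part of these sums in the result was not tested.

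Ep300, which encodes the acetyltransferase p300, fell at 4 h (-1.31 and -1.27) and at 12 h (-1.28 and -1.24, SE 0.12 or 0.13, largest adjusted p = 7.52e-23). Of the 3 deacetylase genes listed, Hdac1 fell at 4 h (-1.39, SE 0.19, and -1.41, SE 0.18, with adjusted p of 6.31e-13 and 1.26e-13), and Hdac2 rose by 1.33 and 1.41 (SE 0.11, adjusted p = 2.42e-32 and 1.27e-36). Hdac3 was not called (0.71 and 0.75, adjusted p = 0.0257 and 0.0163). The corepressor gene Ctbp2 had 5 counts in all, and Ctbp1 and Sin3a were not called.

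Genes known from other work to be regulated by KLF proteins were read from a list of 12, all in the fit. At 4 h, 2 were called higher and 7 lower than control after each dose, against 40.7% (low dose) and 43.5% (high dose) of all genes called in either direction. At 12 h 1 was higher and 8 lower after the low and 1 higher and 6 lower after the high dose (37.7% and 37.9% of all genes), and at 24 h these were 1 and 3, and 2 and 2 (17.3% and 20.2%). Between doses Cdkn1a and Foxp3 were higher and Cdkn1b lower at 4 h, of 10 genes tested (5.85% of all genes). Cdkn1a and Itgb7 were higher at 12 h, of 10 tested (2.79%), and at 24 h, of 9 tested (1.56%). Foxp3, the regulatory T cell factor, had 2.16 to 6.59 normalised counts at 4 h after the low and 14.5 to 21.4 after the high dose. The call of this difference (1.89, SE 0.58, adjusted p = 0.0118) was lost without low-dose replicate 1 (1.63, adjusted p = 0.0751) or 3 (1.54, adjusted p = 0.0926) or high-dose replicate 3 (1.77, adjusted p = 0.0565). Against control, Foxp3 was called lower after the low dose at 4 h (-2.94, adjusted p = 1.73e-06) and at 12 h (-1.57, adjusted p = 0.00417), the latter not without control replicate 1 (-1.20, adjusted p = 0.0601). It was called higher at 24 h after both doses (1.38, adjusted p = 0.0116, and 1.20, adjusted p = 0.0293, low dose first). Both 24 h calls were lost without control replicate 2 (1.02, adjusted p = 0.0953, and 0.84, adjusted p = 0.176). The low-dose call was also lost without low-dose replicate 3 (0.63, adjusted p = 0.296) and in a fit of only the groups compared (1.10, adjusted p = 0.142). The high-dose call was also lost without high-dose replicate 1 (1.07, adjusted p = 0.0895) or 3 (1.12, adjusted p = 0.0797) and with libraries scaled by their total counts (0.97, adjusted p = 0.0997). S1pr1, the egress receptor, had 1130 to 1530 normalised counts in controls and 3.95 to 31.3 at 4 h after the low dose (log2 fold change -6.05, SE 0.44, adjusted p = 4.52e-40). At 24 h it was back to 251 to 491 after the low and 444 to 461 after the high dose, still below all controls. Smad7, an inhibitor of transforming growth factor beta signaling, fell at 4 h (-1.79 and -1.76, SE 0.27, adjusted p = 1.79e-10 and 2.35e-10), and Tgfb1 itself rose by 1.98 and 1.69 (SE 0.20, adjusted p = 2.59e-21 and 8.6e-16).

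The cyclin-dependent kinase inhibitor genes Cdkn1a and Cdkn1b moved in opposite directions. Cdkn1b, which holds resting cells out of cycle, had 581 to 692 normalised counts in controls, 31.3 to 43.2 at 4 h after the low and 11.6 to 20.6 after the high dose. The dose difference was -1.12 (SE 0.29, adjusted p = 0.00187), and it missed the fold threshold without high-dose replicate 2 (-0.91, adjusted p = 0.0407) and both thresholds in a fit of only the 2 groups compared (-0.90, adjusted p = 0.0561). Cdkn1a, which encodes p21 and is a known target of Klf4 and Klf6, had 0 to 2.86 in controls, 12.9 to 29 at 4 h after the low and 66 to 71.7 after the high dose. High against low dose, it was higher by 1.72 at 4 h (SE 0.47, adjusted p = 0.00476), 2.13 at 12 h (SE 0.47, adjusted p = 0.000379) and 2.01 at 24 h (SE 0.57, adjusted p = 0.0148). The 4 h call was lost without low-dose replicate 3 (1.51, adjusted p = 0.0581). The 24 h call was lost without low-dose replicate 1 (1.82, adjusted p = 0.0718), low-dose replicate 2 (1.67, adjusted p = 0.113) or high-dose replicate 3 (1.92, adjusted p = 0.058), and in a fit of only the 2 groups compared it was 0.76 (adjusted p = 0.0549).

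Ccl5, the chemokine gene that Klf13 is known to activate, had 55.7 to 101 normalised counts in controls and 4.32 to 9.22 at 4 h after the low dose (log2 fold change -2.95, SE 0.61, adjusted p = 8.33e-06). After the high dose at 4 h it had 4.29 to 52.1 (-1.41, SE 0.58, adjusted p = 0.03). That call was lost without control replicate 2 (adjusted p = 0.051) or 3 (0.148), without high-dose replicate 2 (0.0969) or 3 (0.151), with at least 10 counts in 3 samples (0.0704) and with only the groups compared (0.144). At 12 h it had at most 7.31 in any library. At 24 h it was called at neither dose, with 35.4 to 57.8 after the low and 19.1 to 73.4 after the high dose. Itgb7, an integrin chain of gut homing, was higher after the high than the low dose at 24 h, at 798 to 927 against 337 to 511 (difference 1.10, SE 0.17, adjusted p = 1.84e-08). The difference was at the fold threshold, and 0.99 with libraries scaled by their total counts and in a fit of only the groups compared, and 1.00, just short of it, without low-dose replicate 1. At 12 h the difference was 1.00 (SE 0.22, adjusted p = 0.000302), and it missed the fold threshold without low-dose replicate 1 (0.99) or 3 (0.80), without high-dose replicate 2 (0.99) or 3 (0.94), with libraries scaled by their total counts (0.96) and in a fit of only the groups compared (0.76). For Itgb7 and Cdkn1a at 12 h and 24 h, the CD8 marker sum was higher after the low dose at both times, without overlap. The NK, B cell and dendritic cell sums were also higher after the low dose at 24 h, without overlap. The CD4 sum was lower after the low dose at 12 h (1170 to 1190 against 1470 to 1590 CPM). The part of these sums in the differences was not tested.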

How the data were processed

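Per the labels and the study's methods, the authors trimmed the QuantSeq reads with Bbduk, aligned them to GRCm38 (mm10) with STAR 2.5.2a and counted them per gene with HTSeq-count. The deposited counts (47643 genes, 21 libraries, 2352800 to 6244279 counts each) are raw. The deposited rlog values are on a log2 scale, made by the authors with DESeq2 after removing genes under 10 reads, and served to find the members and for correlations. The annotation release and strand setting are not given in the sources used here. Tags near the 3′ end carry no molecular identifiers, so limits cover counting error only.

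Counts were fitted with DESeq2 1.42.0 in R 4.3.3, with all 21 libraries in 1 fit and every group a term, for the 15300 genes with at least 10 counts in total, with the normal prior for shrunken fold changes, as in the study's methods. Of its 9 comparisons, 6 set a peptide group against control and 3 the high against the low dose. Intervals are 95% Wald intervals of the unshrunken value. A likelihood ratio test of dose by time used the 18 immunised libraries. The fit was tested on simulated data, and the outcome is not reported here. No pair of libraries within a group agreed within sampling noise. Replicate 3 of the low dose at 12 h stood apart from its group. Its chi-square per degree of freedom was 13.4 and 13.2 against replicates 1 and 2, with 3.28 between those. Gm42418 took 25.7% of its counts, against 17% and 18.2%, and its Klf6 (147) and Klf7 (223) were the lowest of the group. Members and lists were chosen with earlier results of these data known. From the other lists, genes called in at least 1 comparison and averaging 20 or more normalised counts could be named, and for likeness the 3 genes with the highest r. A gene that this rule would name is not reported here. Alternatives were edgeR 4.0.16 with TMM, other filters, no shrinkage, leaving out the 3 most counted genes, a replicate block, only the groups compared, each library left out and, chosen after seeing the data, scaling by total counts. The deposited tables held 0 value columns of samples outside the labels.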

Additional observations from a re-analysis of the deposited data

Results flagged for a closer look

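For 5 of the 6 members the difference between the doses itself differed between 4 h, 12 h and 24 h, by a likelihood ratio test of the dose by time interaction over the 18 immunised libraries (DESeq2, Benjamini-Hochberg adjusted over all genes). This test called 1035 of 10037 genes (10.3%), and 368 to 758 genes when replicate 1, 2 or 3 of every group was left out. The members were treated as chosen with these values known, so the values are a description. The adjusted p was 1.28e-18 for Klf6, whose log2 dose difference was 2.55, 0.04 and 0.23 at the 3 times. It was 5.19e-11 for Klf3 (-1.68, -0.47 and 0.17), 0.00823 for Klf7 (-0.91, -0.26 and 0.18), 0.0171 for Klf13 (0.35, -0.15 and 0.47) and 0.0223 for Klf10 (-1.71, -0.53 and -0.04). Leaving out replicate 1, 2 or 3 of every group kept Klf6 (adjusted p of 9.9e-10, 1.52e-15 and 3.06e-14) and Klf3 (4.5e-05, 1.97e-05 and 8.88e-14) past the threshold. Klf7 stayed past it without replicate 3 (0.0106) and not without replicate 1 (0.0937) or 2 (0.373). Klf10 (0.423, 0.198 and 0.406) and Klf13 (0.419, 0.0929 and 0.0737) were past it in none of the 3. edgeR and the fit with a replicate block kept all 5, with Klf13 at 0.0468 in edgeR. The dose difference of Klf13 had the same sign at 4 h and 24 h and spanned the least (0.62), while that of Klf6 spanned 2.51. Time and sort gate changed together, so they cannot be told apart here.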

How the results depend on the processing

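Of 747 values of the 6 members under the alternatives, 729 kept direction and side of the threshold, 5 gained a call, those of Klf7 and Klf10 given beside them, and 13 reversed sign. The reversals were of uncalled differences. Klf6 between doses at 12 h was -0.02 with total-count scaling and -0.18 to 0.34 with a library left out, and Klf10 between doses at 24 h -0.36 to 0.10. Klf4 ranged over -0.60 to 0.25 and -0.66 to 0.27 (low dose against control at 12 h and 24 h), -0.03 to 0.35 (high dose at 12 h) and -0.10 to 0.75 (between doses at 12 h). For the other named genes, the 1148 values compared were of differences already called, except those of Klf2 between doses at 24 h, so gained calls of other differences could not appear among them. Of these values 1101 kept direction and side of the threshold and 47 lost the call, with no reversal. Going from DESeq2 size factors to library totals shifted the log2 scaling between groups, the same for every gene. The shift was -0.15 and -0.16 at 4 h and -0.13 and -0.24 at 24 h against control, and at most 0.10 in size elsewhere.

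Other Klf and Sp genes called were 5 rather than 4 for the low dose at 12 h with edgeR, unshrunken fold changes, total-count scaling and only the groups compared, each time with Klf16 gained. They were 4 rather than 3 for the high dose at 24 h with edgeR, unshrunken fold changes and total-count scaling, with Klf2 gained. With only the groups compared Klf2 was gained there and Klf9 lost. They were 2 rather than 1 for the low dose at 24 h with total-count scaling, and 1 rather than 0 between doses at 4 h with edgeR, without a filter, with at least 10 counts in 3 samples, with total-count scaling and with the replicate block. Between doses at 24 h they were 1 rather than 0 with edgeR and total-count scaling. Genes called with only the groups compared were 145 against 311 at 12 h and 83 against 151 at 24 h between doses. The cause was not tested.

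With a library of the groups compared left out, genes called against control were 5226 to 5257 and 5578 to 5643 at 4 h, 4748 to 4937 and 4914 to 5075 at 12 h and 1892 to 2388 and 2345 to 2498 at 24 h, low dose first. Between doses they were 529 to 642, 227 to 330 and 122 to 157. For the interaction of dose and time, leaving out replicate 1, 2 or 3 of every group gave 368 to 758 genes against 1035. Members called stayed at 5 and 3 at 4 h, 4 to 5 and 4 at 12 h, 4 and 2 to 3 at 24 h, and 3 to 4, 0 and 0 between doses. Other Klf and Sp genes called were 5 and 5, 3 to 5 and 5 to 6, 1 to 2 and 2 to 3, and 0 to 1, 0 and 0. Leaving out replicate 2 or 3 of the low dose at 12 h, outside that comparison, added Klf2 to Klf9, Sp4 and Sp6 for the high dose at 24 h. Sp4 after the high dose at 24 h was lost without control replicate 3 (-0.95).

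Same-numbered libraries did not deviate together (mean r = 0.00529 over 63 pairs, 12 over 0.1, 9 of 21 best with their own number). The replicate block gave 5446, 5794, 5006, 5147, 2144 and 2550 calls against control and 611, 288 and 138 between doses, and it changed no call of a member.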
